A study of Rattus norvegicus with 8 samples.

Results

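The 9 genes described here are classic targets of the transcription factor NRF2 (gene Nfe2l2) in the antioxidant response: Nqo1, Gpx2, Gclc, Gclm, Hmox1, Txnrd1, Srxn1, Gsr and Slc7a11. Each was taken from the probe sets that the platform annotation gives to that symbol alone, and each had 1 such probe set, among 18166 named genes. Of the 9 members, 7 had a mean log2 level of at least 5 over the arrays and entered the tests, as did 8690 genes in all. Srxn1 (mean 4.76) and Slc7a11 (mean 2.24) did not reach that level and are described from a fit with no level filter. Gpx2 reached it through its 24 h arrays alone.

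Liver RNA came from male rats of the outbred Sprague-Dawley stock. It was measured on 8 Affymetrix arrays, 1 per diet, treatment and time. The rats had been fed ethanol chronically (EtOH) or pair-fed a carbohydrate control diet (CHO). They had received AM21, an oligonucleotide that blocks the microRNA miR-21, or were untreated. Liver was taken 24 h after removal of 70% of the organ (partial hepatectomy, PHx) and at the operation itself (0 h). AM21 was injected intraperitoneally at 7.5 mg/kg, 72 h before PHx and again directly after it. The 8 groups were thus EtOH AM21, EtOH untreated, CHO AM21 and CHO untreated at 24 h, and the same 4 at 0 h. Each array held RNA pooled from 3 (AM21) or 4 (untreated) rats, and the same animals gave both times, so there were 4 pools and the spread between animals was not measured. No sham-operated, saline-injected or control-oligonucleotide rats were analysed here. So surgery, the time between samples and the loss of liver cannot be told apart in a change with PHx, and AM21 cannot be told apart from the cohort of animals that received it. Tests of diet and AM21 treat the 8 arrays as separate samples, so their p-values measure the spread between arrays of 4 pools.

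NRF2 is kept scarce by KEAP1, an adaptor that hands it to a ubiquitin ligase. Electrophiles and oxidants modify KEAP1, NRF2 then accumulates, pairs with a small MAF protein and binds antioxidant response elements in its target genes. In liver these targets make glutathione, keep glutathione and thioredoxin reduced, and detoxify quinones, peroxides and haem. BACH1 occupies the same elements as a repressor, above all at Hmox1. Ethanol oxidation in hepatocytes produces acetaldehyde and reactive oxygen species, which is why these genes are studied in alcohol-fed liver.

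The antioxidant response element is often written with the core TGACNNNGC, and a related site for NRF2 with MAF or AP-1 proteins as TGANTCAGC. Both were searched on both strands, and a single site can match both where C follows TGA. The search covered RefSeq windows (build GRCr8) from 250 bases before to 50 bases after each gene's start. The windows covered 7 of the 9 members, Txnrd1 with 2 alternative starts; Hmox1 and Gsr had none. A match was found in 4 of these 8 windows, each of another member, against 12.7% of all 33469 windows for either motif (12.1% for TGACNNNGC and 1.11% for TGANTCAGC). The 4 matches are shown in 30 bases of the gene's strand, 5′ to 3′, with the matched bases in capitals, because they lie beside genes that rose, did not pass, or were too dim to test. The first 3 read TGACNNNGC on the opposite strand, so that Gpx2 holds TGACTTAGC, Txnrd1 TGACAAAGC and Gclm TGACTAAGC.
Gpx2, chr6:101230027-101230056, minus strand: acctggtttcGCTAAGTCAttctgggaatg
Txnrd1, second start, chr7:22755963-22755992, minus strand: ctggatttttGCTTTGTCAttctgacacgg
Gclm, chr2:213031953-213031982, plus strand: tgcggtttctGCTTAGTCAttgtcttccag
Srxn1, chr3:161064797-161064826, plus strand: aaactcacccTGAGTCAGCgacccgacgcg

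The sites lay at bases -13 to -5 of Gpx2, -78 to -70 of the second Txnrd1 start, -172 to -164 of Gclm and -5 to 4 of Srxn1, counted from the start with no base 0. Gpx2 and Gclm carry the same core and had opposite signs of change after PHx, though the change of Gclm did not pass its test. Their windows are therefore given with the 250 bases before the start. The Nqo1 window is given beside them as that of a gene with a large rise and neither motif within these bases. The windows of Nqo1, Gclc, Slc7a11 and the first Txnrd1 start held no match, which says only that these letters are not in that stretch.
Gpx2, chr6:101230034-101230283, minus strand: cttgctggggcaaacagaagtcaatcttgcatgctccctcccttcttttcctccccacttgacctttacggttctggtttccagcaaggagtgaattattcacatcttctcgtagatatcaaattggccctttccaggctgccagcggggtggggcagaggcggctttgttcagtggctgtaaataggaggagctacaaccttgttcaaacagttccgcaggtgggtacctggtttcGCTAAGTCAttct
Gclm, chr2:213031885-213032134, plus strand: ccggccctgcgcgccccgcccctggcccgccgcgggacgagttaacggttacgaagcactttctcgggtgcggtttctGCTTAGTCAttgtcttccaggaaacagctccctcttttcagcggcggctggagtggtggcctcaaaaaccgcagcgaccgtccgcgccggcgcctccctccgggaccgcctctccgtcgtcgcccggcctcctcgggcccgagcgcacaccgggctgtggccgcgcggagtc
Nqo1, chr19:52220268-52220517, minus strand: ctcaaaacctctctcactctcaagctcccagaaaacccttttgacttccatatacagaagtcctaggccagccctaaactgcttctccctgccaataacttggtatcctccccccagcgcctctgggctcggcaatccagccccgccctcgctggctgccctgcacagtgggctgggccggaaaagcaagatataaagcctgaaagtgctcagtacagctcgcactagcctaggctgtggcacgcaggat

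All levels below are log2 values made by RMA, and all changes are log2 differences. Array medians lay between 4.11 and 4.23. Hepatocyte markers were high on every array, with list medians between 11.61 and 11.76. The first question was how the antioxidant genes stood a day after PHx. Nqo1, Txnrd1 and Gsr rose, as did Gpx2 in a fit with no level filter. The rate-limiting genes of glutathione synthesis and Hmox1 did not pass the test, and no tested member fell. Of the 7 tested members 4 rose, where 15.3% of all tested genes rose, 12.8% fell and 28.1% changed in either direction. That count includes Gpx2, which reached the level minimum only because it was high at 24 h, so nothing is read from it; the others were Nqo1, Txnrd1 and Gsr. The direction was higher in all 4 pools for 5 of the 9 members, lower in all 4 for Gclm, and mixed for the other 3. Of tested genes, 26.2% were higher and 22.8% lower in all 4. The sets are unlike: the 5 include Srxn1, which was too dim to test, and Gpx2, and the 9 include Slc7a11, also not tested. The median change of the tested members, with Gpx2 among them, was 0.32, beside 0.01 over all tested genes. The per-array plot shows each member in each pool.

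**Figure D1:**
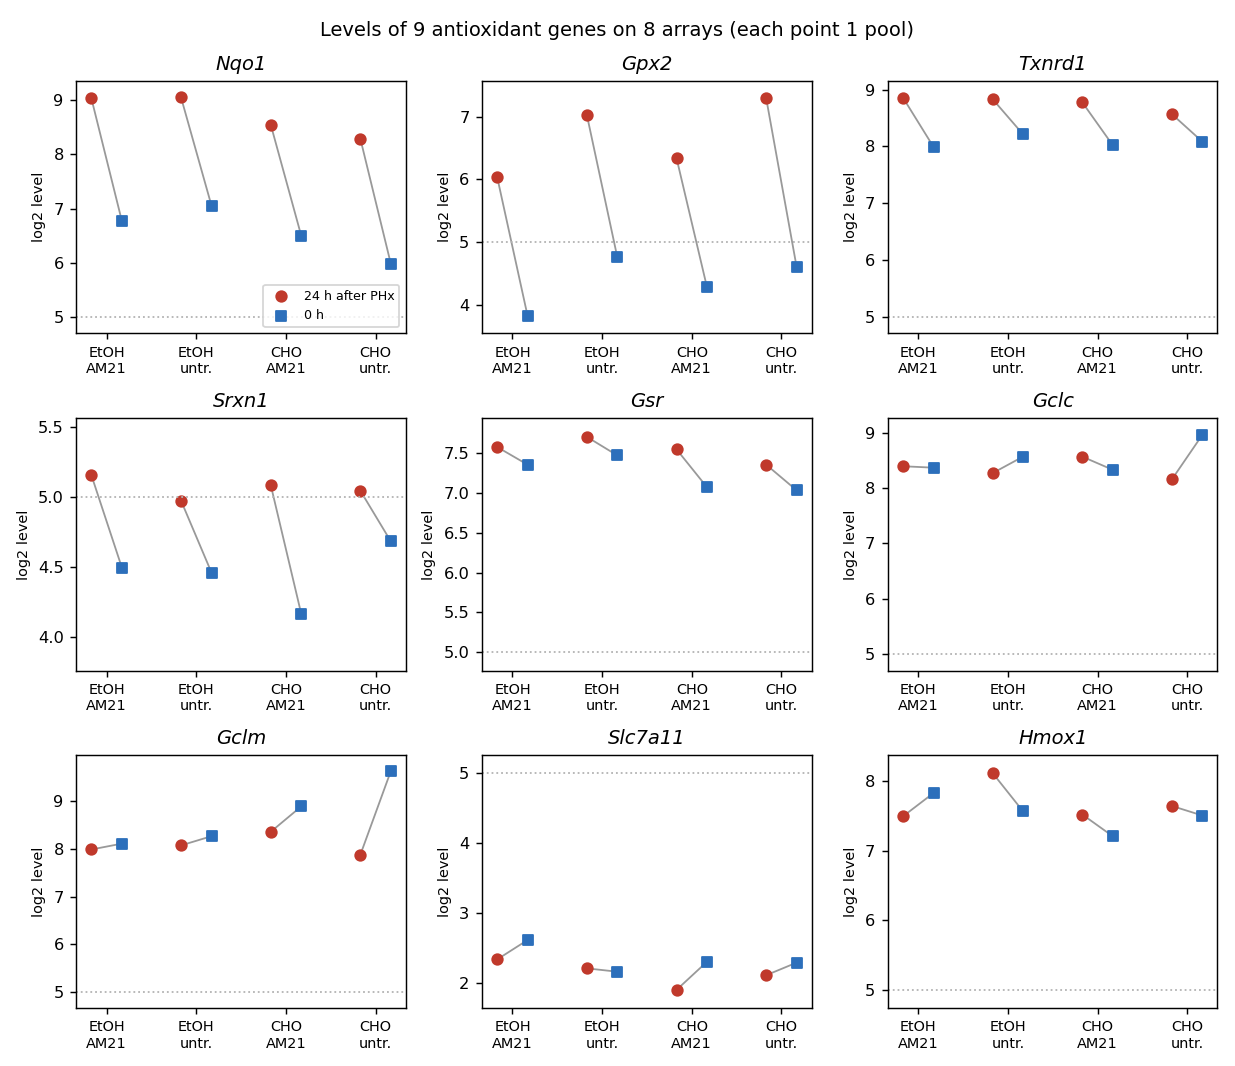
Log2 level of each of the 9 genes (y axis, own scale per panel) in the 4 pools (x axis), with circles for 24 h after PHx, squares for 0 h and a line joining both arrays of a pool; the dotted line marks the level minimum of 5. All 4 circles lie above all 4 squares for Nqo1, Gpx2, Txnrd1 and Srxn1, while Gclm has its highest square in the CHO untreated pool at 9.64.

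Nqo1 encodes a quinone reductase that passes electron pairs to quinones and so avoids semiquinone radicals. At 24 h its level was 9.03 in EtOH AM21, 9.05 in EtOH untreated, 8.55 in CHO AM21 and 8.29 in CHO untreated livers, against 6.77, 7.05, 6.50 and 5.98 in the same pools at 0 h. Every 24 h array was higher than every 0 h array, and the change was nearly equal in the 4 pools, from 1.998 in EtOH untreated to 2.30 in CHO untreated. The mean was 8.73 ± 0.37 at 24 h and 6.58 ± 0.46 at 0 h (SD, n = 4 arrays each). The fitted rise was 2.15 ± 0.09 (SE), or 4.45-fold (limma adjusted p = 3.90e-04).

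Gpx2 encodes a glutathione peroxidase best known from gut epithelium. Its 24 h levels were 6.04 in EtOH AM21, 7.03 in EtOH untreated, 6.34 in CHO AM21 and 7.30 in CHO untreated livers, against 3.81, 4.76, 4.28 and 4.60 in the same pools at 0 h. No 0 h array reached 5 and every 24 h array exceeded 6, so the groups did not overlap. The fitted difference was 2.31 ± 0.12 and lay between 2.06 in CHO AM21 and 2.70 in CHO untreated. Because its 24 h arrays alone brought Gpx2 past the level minimum, its test is taken from the fit with no level filter (limma adjusted p = 7.10e-04). RMA values carry no detection call, so the 0 h levels are not shown to be above background and the size of this rise is uncertain.

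Txnrd1, the cytosolic selenoenzyme that reduces thioredoxin, rose less. Its 24 h levels were 8.86 in EtOH AM21, 8.83 in EtOH untreated, 8.78 in CHO AM21 and 8.57 in CHO untreated livers, against 7.99, 8.21, 8.02 and 8.08 at 0 h. The arrays of both times did not overlap. The fitted rise was 0.68 ± 0.10 (limma adjusted p = 0.00416), from 0.49 in CHO untreated to 0.87 in EtOH AM21. Of all tested genes, 17.4% had their 4 arrays at 24 h above their 4 at 0 h, 13.7% had them below and 31.1% either. Among the 7 tested members, Nqo1 and Txnrd1 were above. So was Gpx2, from which nothing is read here, since its 24 h arrays alone brought it past the level minimum.

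Srxn1, sulfiredoxin, repairs over-oxidised peroxiredoxins. It was dim, with 5.16, 4.97, 5.09 and 5.04 at 24 h in EtOH AM21, EtOH untreated, CHO AM21 and CHO untreated livers, against 4.50, 4.46, 4.17 and 4.68 at 0 h. The 24 h arrays all lay above the 0 h arrays. In the fit with no level filter the difference was 0.61 ± 0.12 (limma adjusted p = 0.0222), at levels where background is not told apart from signal.

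Gsr encodes glutathione reductase, which returns oxidised glutathione to its reduced form. Its 24 h levels were 7.58 in EtOH AM21, 7.71 in EtOH untreated, 7.55 in CHO AM21 and 7.36 in CHO untreated livers, against 7.36, 7.47, 7.07 and 7.04 at 0 h. All 4 pools were higher at 24 h, by 0.22 to 0.48, though the groups overlapped. The rise of 0.31 ± 0.09 passed narrowly (limma adjusted p = 0.0384). It no longer passed without any 1 of the 4 pools (adjusted p from 0.0854 to 0.109), with no level filter (0.109) or with arrays centred on their medians (0.26 ± 0.09, adjusted p = 0.0742), and over all alternatives adjusted p lay between 0.0287 and 0.109.

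**Figure D2:**
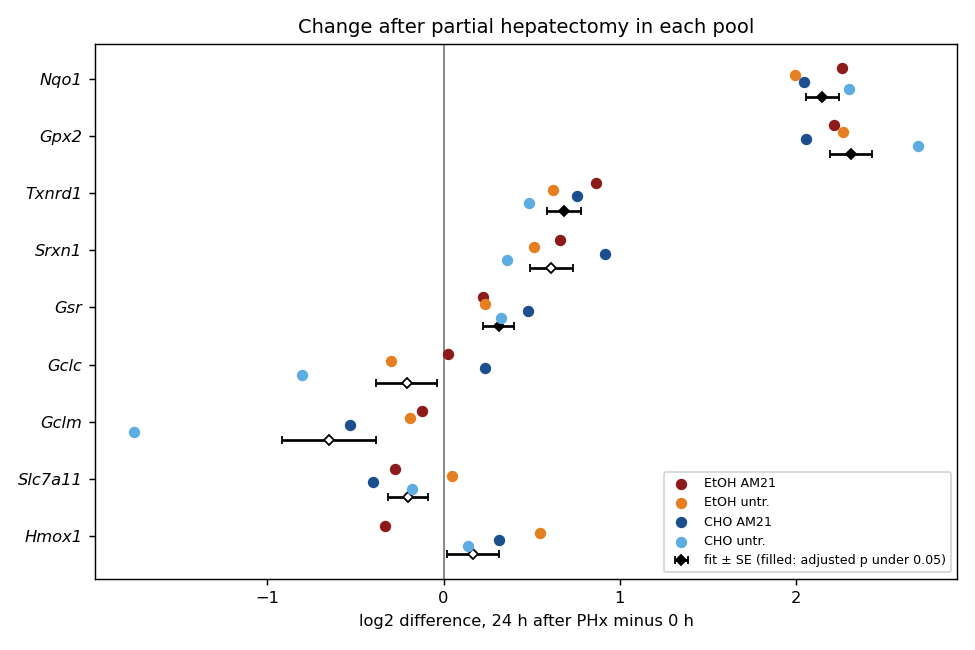
Log2 difference between 24 h after PHx and 0 h (x axis) for each gene (y axis), with 1 coloured point per pool and the fitted difference with its SE as a diamond, filled where a tested gene had an adjusted p under 0.05. Nqo1 and Gpx2 stand above 2 in every pool, except Nqo1 at 1.998 in the EtOH untreated pool, and Gclm reaches -1.76 in the CHO untreated pool; Srxn1 and Slc7a11 come from the fit with no level filter.

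Gclc and Gclm encode the catalytic and the modifier subunit of glutamate-cysteine ligase, the rate-limiting enzyme of glutathione synthesis. Gclm stood at 7.99 in EtOH AM21, 8.08 in EtOH untreated, 8.36 in CHO AM21 and 7.88 in CHO untreated livers at 24 h, against 8.11, 8.27, 8.89 and 9.64 at 0 h. All 4 pools were lower at 24 h, with changes of -0.12 and -0.19 in EtOH and of -0.53 and -1.76 in CHO livers, with and without AM21. The fitted change of -0.65 ± 0.27 did not pass (limma adjusted p = 0.116) and was -0.28 without the CHO untreated pool.

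Gclc had 24 h levels of 8.39 in EtOH AM21, 8.27 in EtOH untreated, 8.56 in CHO AM21 and 8.16 in CHO untreated livers, against 8.37, 8.57, 8.33 and 8.96 at 0 h. Its highest array was, as for Gclm, the CHO untreated one at 0 h. The difference of -0.21 ± 0.17 did not pass (limma adjusted p = 0.402), and without the CHO untreated pool it was -0.01. Slc7a11, the cystine importer xCT, lay between 1.90 and 2.34 at 24 h and between 2.16 and 2.62 at 0 h, under the level minimum on every array. No change is read from it.

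Hmox1, haem oxygenase 1, breaks haem down to biliverdin, iron and carbon monoxide, and is abundant in macrophages that clear red cells. Its 24 h levels were 7.49 in EtOH AM21, 8.11 in EtOH untreated, 7.52 in CHO AM21 and 7.64 in CHO untreated livers, against 7.83, 7.56, 7.20 and 7.50 at 0 h. The groups overlapped and the EtOH AM21 pool went the other way, by -0.33. The difference was 0.17 ± 0.15 (limma adjusted p = 0.442), and 0.33 without the EtOH AM21 pool.

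Some RNA of neutrophils and monocytes moved with PHx. S100a8 was higher by 3.09 ± 0.37, but was under 5 on every 0 h array and entered the tests through its 24 h arrays alone. S100a9 was higher by 2.01 ± 0.32 (limma adjusted p = 0.00592). Its 0 h levels ran from 4.55 to 5.18, and its 24 h arrays brought its mean past the level minimum. So the call of neither gene is an independent result. The third tested marker, Ly6c, differed by 0.30 ± 0.22 and did not pass (adjusted p = 0.351). The summed level of the 11 measured neutrophil and monocyte markers lay between 8.19 and 9.61 at 24 h and between 7.56 and 7.91 at 0 h on the log2 scale. Unlogged levels were summed, so S100a8, S100a9 and Ly6c, the brightest at 24 h, weighed most in the 24 h values. Of these markers 8 were under 5 on all arrays, among them Mpo, Elane and Cxcr2. In the fit with no level filter their differences ran from -0.23 (Ngp) to 0.55 (Cxcr2), with signs both ways, and none passed. The part of these cells in the changes of Nqo1, Gpx2, Txnrd1 and Gsr was not tested. In pooled tissue, more cells of a type and more RNA per cell cannot be told apart.

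The rest of the pathway did not rise as a group after PHx. The counts per list stand beside 15.3% of all tested genes that rose and 12.8% that fell, and no list was tested as a set. Of 15 tested genes among the regulators of NRF2 and close partners, Osgin1, an NRF2-induced growth inhibitor, rose by 0.65 ± 0.15 (limma adjusted p = 0.02), and Sqstm1, the autophagy adaptor p62 that binds KEAP1, fell by 0.38 ± 0.09 (adjusted p = 0.0279). Nfe2l2 itself had levels of 10.21 in EtOH AM21, 10.23 in EtOH untreated, 10.02 in CHO AM21 and 10.66 in CHO untreated livers at 24 h, against 10.14, 9.90, 10.05 and 9.62 at 0 h. Its difference of 0.35 ± 0.18 did not pass (adjusted p = 0.19) and was largest in the CHO untreated pool. Keap1 differed by 0.00 ± 0.11 and Bach1 by -0.20 ± 0.17, and neither passed. These are RNA levels, while NRF2 is controlled largely through protein stability, which was not measured.

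Of 15 other glutathione genes 4 rose and 4 fell (15.3% and 12.8% of all tested genes), with a median of -0.10. Glrx3, an iron-sulphur glutaredoxin, rose by 0.68 ± 0.13, Slc3a2, the heavy chain that carries Slc7a11 to the membrane, by 0.52 ± 0.11, and Gpx7 by 0.52 ± 0.15. Gpx1, the abundant cytosolic glutathione peroxidase, was at -0.10 ± 0.09 and did not pass. In the thioredoxin and peroxiredoxin list 5 of 14 fell and 0 rose (5 had an unadjusted p under 0.05, all of them falls). The largest falls were in Sesn1 (-0.92 ± 0.17), the thioredoxin inhibitor Txnip (-0.86 ± 0.11) and the methionine sulphoxide reductase Msra (-0.69 ± 0.10). Txn1, the substrate of Txnrd1, differed by 0.18 ± 0.08 and Prdx1 by 0.05 ± 0.09, and neither passed.

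Among 12 genes that supply NADPH, Idh2 rose by 0.57 ± 0.11, and Aldh1l2 and Nadk2 fell by 0.54 ± 0.10 and 0.52 ± 0.12. Me1, malic enzyme, had a difference of -0.04 ± 0.13 that did not pass. In the list of drug conjugation and reduction targets 8 of 24 fell and 1 rose (12.8% and 15.3% of all tested genes), with a median of -0.18. Ptgr1, prostaglandin reductase 1, fell by 1.80 ± 0.13 and the aldehyde oxidase Aox1 by 1.16 ± 0.14, while the efflux pump Abcg2 rose by 0.80 ± 0.13. Of 9 haem and iron genes, Hmox2, the constitutive haem oxygenase, fell by 0.57 ± 0.11, and Slc40a1, ferroportin, by 0.50 ± 0.10. Of 12 superoxide and peroxide genes 1 rose and 3 fell. Sod2, the mitochondrial superoxide dismutase, was higher by 0.92 ± 0.17. Nox4, Sod3 and catalase (Cat) were lower (-2.17 ± 0.25, -0.64 ± 0.10 and -0.54 ± 0.08). Nox4 levels ran from 4.51 to 5.28 at 24 h and from 5.90 to 8.21 at 0 h. Its 0 h arrays brought its mean past the level minimum, so its call is not an independent result and its size is uncertain. The plot of the pathway lists shows Nqo1 and Gpx2 to the right of all other genes drawn after PHx.

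**Figure D3:**
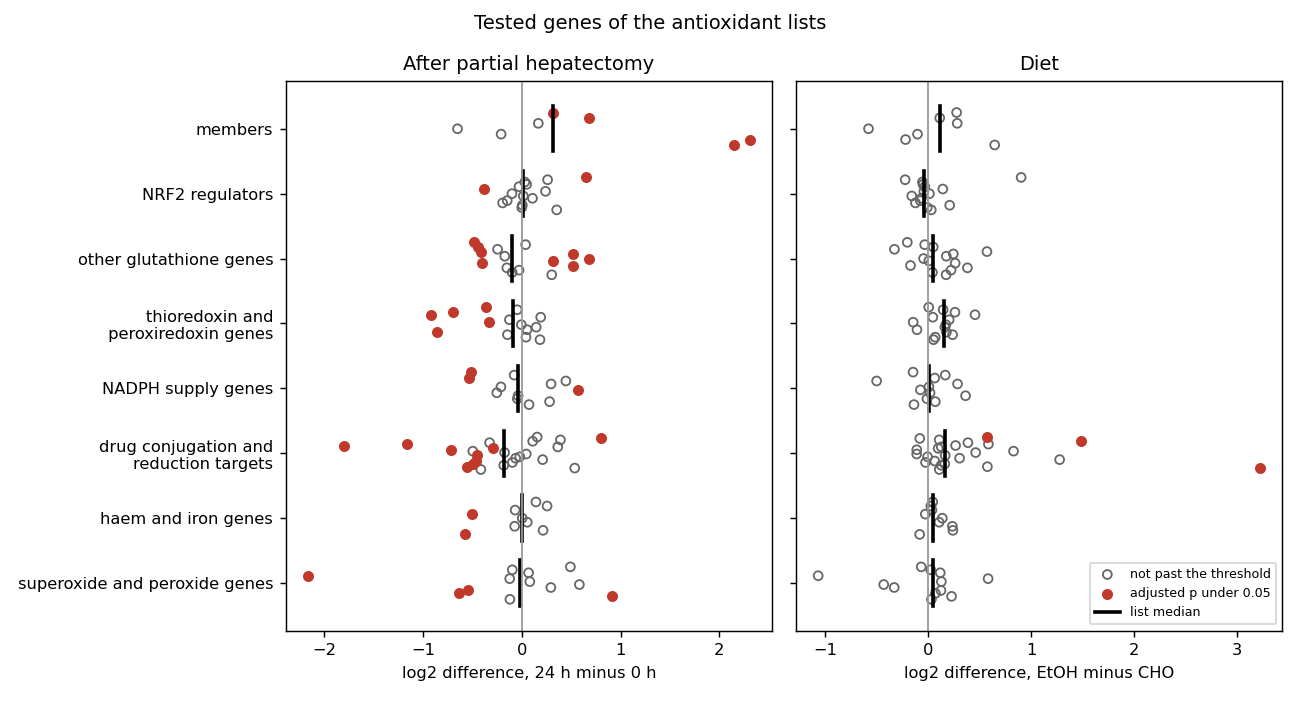
Log2 difference (x axis) of every tested gene in 8 lists (y axis), for 24 h after PHx minus 0 h on the left and EtOH minus CHO on the right; filled points had an adjusted p under 0.05 and the bar is the list median. After PHx the members' median is 0.32 and that of the drug conjugation and reduction list is -0.18. Between the diets filled points occur in that list alone. Among them Gsta3, at 3.23, entered the tests through its EtOH arrays alone.

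The second question was whether chronic ethanol feeding shifted these genes. No member passed the test between the diets: limma called 0 of 7, with 3 at an unadjusted p under 0.05 (Nqo1, Gsr and Gclm), where 0.460% of all tested genes were called (0.380% higher and 0.0806% lower) and 1335 of 8690 had an unadjusted p under 0.05. The members' median difference was 0.11, beside 0.02 over all tested genes. Nqo1 and Gsr were higher in the EtOH array of all 4 matched pairs, as were 15.0% of tested genes, and none of the 9 was lower in all 4 (8.99%). No member's EtOH arrays lay all above (3.48% of tested genes) or all below (1.39%) its CHO arrays, 4.87% in all.

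Nqo1 was higher in EtOH than in CHO livers by 0.48 with AM21 and 0.76 without it at 24 h, and by 0.27 and 1.07 at 0 h. The means over both times were 7.98 ± 1.24 in EtOH and 7.33 ± 1.28 in CHO livers (SD, n = 4 arrays each), a spread that includes the PHx response. The fitted difference was 0.65 ± 0.13 (limma adjusted p = 0.0796). It passed with the within-pool correlation as estimated (adjusted p = 0.0221) and with all 2-way interactions (0.0215). The estimated correlation was negative (-0.371), which makes the SE of a difference between pools smaller. So the pass with that correlation is not read. Over all alternatives adjusted p lay between 0.0215 and 0.245. Gsr had a difference of 0.28 ± 0.09 (adjusted p = 0.222), from 0.03 in the AM21 pair at 24 h to 0.44 in the untreated pair at 0 h.

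Gclm pointed the other way before the operation. At 0 h it had 8.11 and 8.27 in EtOH livers with and without AM21, against 8.89 and 9.64 in CHO livers. At 24 h it had 7.99 and 8.08 in EtOH livers against 8.36 and 7.88 in CHO livers, so the diets overlapped. Averaged over both times the difference was -0.58 ± 0.25 (limma adjusted p = 0.319). In the 0 h arrays alone it was -1.07 ± 0.19 (adjusted p = 0.0493, with 1 residual degree of freedom), and in the 24 h arrays alone -0.09. The adjusted p lay between 0.0493 and 0.875 over the alternatives. The difference in PHx change between the diets was 0.99 ± 0.28 and did not pass (limma adjusted p = 0.226).

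Hmox1 had an EtOH minus CHO difference of 0.28 ± 0.14 (limma adjusted p = 0.382), with pairs at -0.03 and 0.47 at 24 h and at 0.62 and 0.06 at 0 h, with and without AM21. Of 15 Kupffer cell and macrophage markers all had positive differences, with a median of 0.48 beside 0.02 over all tested genes. Of these 14 had an unadjusted limma p under 0.05 and 2 passed, Marco (0.77 ± 0.10) and Cd5l (0.71 ± 0.09). The summed level of the 15 lay between 11.89 and 12.08 in EtOH livers and between 11.41 and 11.70 in CHO livers. No marker was under 5 on all arrays, and the part of this sum in the Hmox1 and Nqo1 values was not tested. The 7 sinusoidal endothelial markers also had positive differences, with pair medians between 0.31 and 0.52, and none passed (3 at an unadjusted p under 0.05). Gpx2 (-0.22 ± 0.13), Txnrd1 (0.11 ± 0.09) and Gclc (-0.10 ± 0.16) did not pass, and Gclc turned positive (0.05) without the CHO untreated array at 0 h.

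**Figure D4:**
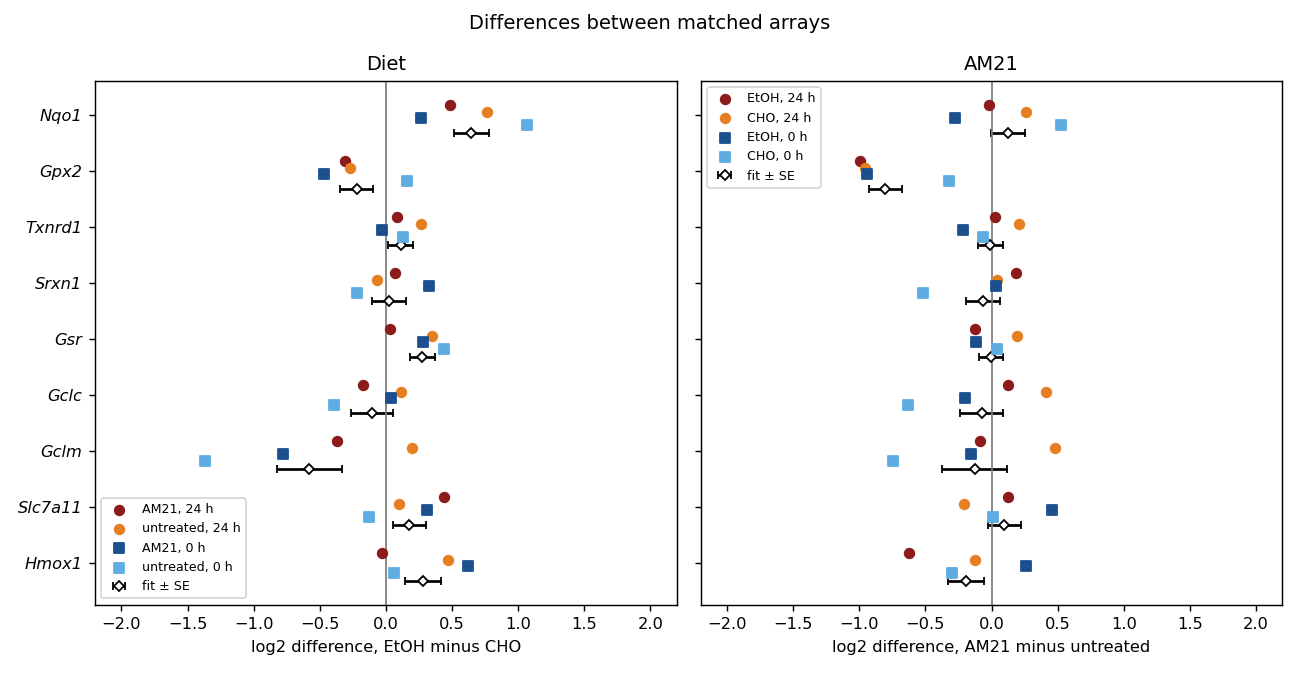
Log2 differences between matched arrays (x axis) for each gene (y axis), EtOH minus CHO on the left and AM21 minus untreated on the right, with circles for 24 h pairs, squares for 0 h pairs and diamonds for the fitted difference with its SE. Nqo1 and Gsr are to the right of 0 in all 4 diet pairs, Gpx2 is to the left of 0 in all 4 AM21 pairs, and no fitted difference passed the test.

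Of the wider pathway, 3 of 24 drug conjugation and reduction targets were higher in EtOH livers and 0 were lower. Over all tested genes 0.380% were higher and 0.0806% lower. Gsta3, a glutathione transferase, had 7.42 and 7.25 in EtOH livers with and without AM21 at 24 h, against 4.71 and 3.54 in CHO livers. At 0 h it had 6.19 and 7.44 in EtOH livers, against 3.86 and 3.29 in CHO livers, so every EtOH array was above every CHO array (3.23 ± 0.33). The conjugate exporter Abcc3 (1.48 ± 0.17) and Entpd5, a nucleotidase of the endoplasmic reticulum (0.58 ± 0.09), also passed. Entpd5 passed narrowly (limma adjusted p = 0.0494). All 3 calls were lost in the 24 h arrays alone and without the CHO untreated array at 24 h, where limma called 0 genes in all. Gsta3 was under 5 on every CHO array and entered the tests through its EtOH arrays alone. Abcc3 had 4.94 and 5.26 in CHO livers with and without AM21 at 24 h, and 4.74 and 4.72 at 0 h. Its EtOH arrays brought its mean past the level minimum too, so neither call is an independent result. Probe sets of glutathione transferases can share signal with near-identical paralogs. In each of the other 6 lists limma called 0 genes between the diets, with 1 to 3 of each list at an unadjusted p under 0.05. Nfe2l2 (0.03 ± 0.17), Keap1 (-0.01 ± 0.13), Bach1 (-0.12 ± 0.16), Txn1 (0.05 ± 0.08), Prdx1 (-0.11 ± 0.09), Me1 (0.36 ± 0.21), Sod2 (0.23 ± 0.16), Cat (0.12 ± 0.08) and Gpx1 (0.04 ± 0.09) did not pass.

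The third question was whether the PHx response of these genes depended on the diet. For the 7 tested members limma called 0 differences, with 1 at an unadjusted p under 0.05 (Gclm, above), where 0.529% of tested genes were called (0.0690% higher and 0.460% lower). The rise of Nqo1 was 2.26 and 1.998 in EtOH pools with and without AM21, and 2.05 and 2.30 in CHO pools (difference -0.05 ± 0.22). That of Gpx2 was 2.22 and 2.27 in EtOH pools and 2.06 and 2.70 in CHO pools (difference -0.13 ± 0.22). In the wider pathway, 1 of 24 drug conjugation and reduction targets passed. Gstm3, a glutathione transferase, changed by -1.17 and -0.24 in EtOH pools with and without AM21, and by 0.81 and 1.44 in CHO pools (difference -1.83 ± 0.20, limma adjusted p = 0.01). The call was lost with no level filter and after quantile normalization again, each of which left 0 calls over all genes. Its levels at 0 h were 6.75 and 5.73 in EtOH livers, against 4.15 and 3.94 in CHO livers, so the CHO values are not shown to be above background.

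The last question was what AM21 did. For the members limma called 0 of 7 and over all genes 0 of 8690 (0%), with 1 and 538 at an unadjusted p under 0.05. The members' median difference was -0.08, beside -0.03 over all tested genes. The member with the low unadjusted p was Gpx2. At 24 h it had 6.04 and 6.34 with AM21 in EtOH and CHO livers, against 7.03 and 7.30 in untreated livers, and at 0 h 3.81 and 4.28, against 4.76 and 4.60. It was lower with AM21 in all 4 pairs, as were 11.2% of tested genes, and no member was higher in all 4 (4.40%). Its AM21 and untreated arrays overlapped, as did those of all members; 0.357% of tested genes had the AM21 arrays all above, 1.27% all below and 1.62% either. The fitted difference was -0.80 ± 0.13 (unadjusted p = 2.39e-04, adjusted p = 0.518), and adjusted p lay between 0.0519 and 1 over the alternatives.

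No neutrophil or monocyte marker passed the AM21 test. The summed level of these markers at 24 h, in which S100a8, S100a9 and Ly6c weighed most, was 8.74 and 8.19 with AM21 in EtOH and CHO livers. In untreated livers it was 9.61 and 9.48. At 0 h it was 7.78 and 7.89 with AM21, against 7.91 and 7.56 in untreated livers. The part of these cells in the Gpx2 values was not tested.

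For the other members the AM21 difference was between -0.19 (Hmox1) and 0.12 (Nqo1), and its sign differed between pairs. The directions for Txnrd1 (-0.01 ± 0.09) and Gsr (0.00 ± 0.09) turned under another scaling and are not read. Hmox1 at 24 h was 7.49 and 7.52 with AM21 in EtOH and CHO livers, against 8.11 and 7.64 in untreated livers. At 0 h it was 7.83 and 7.20 with AM21, against 7.56 and 7.50. The summed erythroid level covered 4 of 9 listed markers, and Hba-a1 weighed most in it. At 24 h this sum was 10.42 and 10.63 with AM21, against 11.37 and 11.46 in untreated livers. At 0 h it was 11.26 and 11.31, against 11.19 and 11.475. The part of red cells in the Hmox1 values was not tested. In the test of whether AM21 altered the PHx change, limma called 0 members and 0 of 8690 genes, with 1 and 604 at an unadjusted p under 0.05. The member was Gclc. It changed by 0.03 and 0.24 in AM21 pools of EtOH and CHO livers, and by -0.30 and -0.80 in untreated pools (difference 0.68 ± 0.23, adjusted p = 0.599). The pathway lists held no call for AM21 or for its interaction with PHx. Among the regulators Nfe2l2 differed by 0.00 ± 0.17 with AM21, Keap1 by -0.12 ± 0.13 and Bach1 by 0.06 ± 0.16.

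Across the 8 arrays the members fell into patterns of their own. The points share the PHx contrast and the 4 pools, so these correlations only describe the arrays. Nqo1 had Pearson's r of 0.97 with Txnrd1, 0.87 with Gsr, 0.86 with Gpx2 and 0.83 with Srxn1. Gclc and Gclm had r of 0.79 with each other, and Gclm had r of -0.74 with Nqo1. Hmox1 had r of at most 0.62 with any other member. The genes most like the mean profile of the 7 tested members, with Gpx2 among them, were Rbm3 (r = 0.99), Denr (0.98), Ppa1 (0.98), Mrpl50 (0.98) and Cyp20a1 (0.98). Those most like Nqo1 were Cwf19l1 (0.99), Exoc4 (0.98) and Clic1 (0.98), and those most like Hmox1 were RT1-DMb (0.96), Cox6a1 (0.95) and Dnajc18 (0.93), all over 8 arrays.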

How the data were processed

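Log2 levels per probe set were deposited by the authors, who used RMA and Affymetrix Expression Console (versions not given), per the submitters' processing notes. RMA removes background and normalizes the arrays to one another, which can hide a shift common to most genes. The values spanned 0.481 to 13.3. Precision is limited by having 4 pools.

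The platform table names 1 symbol for 18511 of 36685 probe sets, several for 575 and none for 17599, which are unnamed here; 18394 were found by gene identifier in the RefSeq table (GRCr8). The brightest probe set stood for a gene, and genes with a mean of at least 5 were tested.

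Fits used limma 3.58.1 in R 4.3.3 with Benjamini-Hochberg adjustment over 8690 genes and a threshold of 0.05. PHx and its interactions had the pool as a fixed block (3 and 1 residual degrees of freedom), since the animal identifiers are the same at both times. Diet and AM21 were additive terms with time; the estimated within-pool correlation of -0.371 was set to 0. On simulated arrays of 8690 genes, 100 of 100 genes changed by 1 on the log2 scale were called for PHx, diet and AM21, and 92 of 100 for each interaction. False calls numbered 11, 13 and 10 for PHx, diet and AM21, 22 for PHx by diet and 29 for PHx by AM21. The simulated noise was drawn separately for each array, with no spread between pools. So these counts do not give the power of the diet and AM21 tests on the real arrays.

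All members were named, with up to 3 called genes of each pathway list, a fixed set of regulators and antioxidant genes, and, for likeness, the highest Pearson's r. Members and lists were chosen with earlier results of these data known. Alternatives covered the level filter, scaling, probe set choice, variance moderation, blocking and left-out arrays.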

Additional observations from a re-analysis of the deposited data

Results flagged for a closer look

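Of 27 sets of 4 differences between matched arrays (9 members in 3 comparisons), 1 held a value far from the others, where chance alone gives about 1 in 20. For Gpx2 the AM21 minus untreated difference in CHO livers at 0 h was -0.32, while the other 3 pairs lay at -0.94, -0.99 and -0.96; its gap to the nearest was 0.924 of their range. All these 0 h levels of Gpx2 were under 5.

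Gclc was higher at 24 h in both AM21 pools (0.03 and 0.24) and lower in both untreated pools (-0.30 and -0.80), a difference of 0.68. The test of that difference did not pass (limma adjusted p = 0.599).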

How the results depend on the processing

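The rises of Nqo1 (2.10 to 2.204) and Txnrd1 (0.62 to 0.75) after PHx kept their direction. Both passed without any 1 pool and under every other alternative that gave them a value. Gpx2 kept its direction too (2.19 to 2.40), with no value at a level minimum of 6, and passed with no level filter. Its passes in the other alternatives are not read, since its 24 h arrays alone brought it past the level minimum. The pool block, removed, changed no member's call: Nqo1 was 2.15 and 4 members were called in the fit with no replicate block. All genes called for PHx numbered 1466 to 1705 without 1 pool, against 2443. For diet, 40 genes became 11 with no level filter, 86 with trend and robust moderation, 661 with the correlation as estimated, 102 with pools as units, 285 with all 2-way interactions, 101 in the 0 h and 0 in the 24 h arrays alone, and 0 to 18 without 1 array. Members called for diet were 1 with the estimated correlation, 1 with all 2-way interactions (Nqo1 in both) and 1 at 0 h (Gclm). For AM21, 0 became 1 with the estimated correlation and 8 with all 2-way interactions. For PHx by diet, 46 became 0 with no level filter, 16 at a minimum of 6, 0 after quantile normalization again and 179 with trend and robust moderation, which gave 26 in place of 0 for PHx by AM21. The causes were not tested.

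Signs that turned belonged to differences that did not pass. With AM21, Txnrd1 was 0.021 and Gsr 0.029 with arrays centred, and 0.015 and 0.027 after quantile normalization again. In the 24 h arrays alone Gclc was 0.27, Gclm 0.20, Txnrd1 0.12 and Gsr 0.033. Without 1 array, AM21 differences ran from -0.215 to 0.082 for Gclc, -0.401 to 0.152 for Gclm, -0.082 to 0.056 for Txnrd1 and -0.074 to 0.049 for Gsr, and the diet difference of Gclc from -0.244 to 0.054. With no detection call, differences at levels under 5 have no sure size.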

Other observations

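Other cell types were followed through marker lists in the same fits. After PHx 15.3% of all tested genes rose and 12.8% fell, and no marker list was tested as a set. After PHx, 3 of 15 Kupffer cell and macrophage markers fell and 1 rose, Marco (1.06 ± 0.10), with Clec4f among the falls (-0.66 ± 0.14). Of 9 tested stellate cell markers 2 rose and 3 fell, with Lrat at -0.96 ± 0.17 and Reln at -0.57 ± 0.09. Of 7 sinusoidal endothelial markers 3 fell, with Ehd3 and Oit3 both at -0.73, and of 13 hepatocyte markers 2 fell, Pck1 (-0.48 ± 0.09) and Cyp2e1 (-0.39 ± 0.09). The lymphocyte list had 1 tested gene of 10 measured, Cd4, which fell by 0.42 ± 0.10. Of the 10, 6 were under 5 on all arrays, among them Cd3e and Cd3d. So the fall of Cd4 is not read as a change of lymphocytes. Limma called 0 of 4 cholangiocyte and 0 of 3 erythroid markers after PHx, with 1 and 0 at an unadjusted p under 0.05.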
